A study of Mus musculus with 4 samples.

Results

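The mitosis and spindle genes described here are 42 genes whose products enter, build, check or complete cell division. They were chosen by name from the known roles of their products and by no threshold on a measured value, but with earlier results of these data known. All 42 were found among the 33924 gene symbols of the data. RNA was sequenced from Lin−LEPR+ bone marrow cells of wild-type (WT) C57Bl/6 male mice without any treatment, and the groups were mature mice (3-month-old) and elderly mice (24-month-old). Each age had 2 libraries. Their titles in the labels name mouse 1 and mouse 2, whereas the methods of the study say that RNA of 3 or 4 mice per group was pooled. The sources do not say whether each library is a separate pool. The libraries were taken as pools here, and on this reading a p-value measures how pools vary, not how mice vary. Whole bone marrow is the source in the sample labels, whereas the methods of the study describe a sort for the leptin receptor (LEPR) on cells without lineage markers (Lin−). Lepr itself was counted at 6385 and 5637 CPM (a count scaled to the size and TMM factor of its library) in mature replicates 1 and 2, and at 4107 and 5787 CPM in elderly replicates 1 and 2. Cxcl12, a chemokine that these stromal cells are known to secrete, stood at 11660 and 13640 CPM in the mature and at 7183 and 9344 CPM in the elderly libraries. The libraries held between 10472117 and 15650518 counts.

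Cells enter mitosis when Cdk1 is activated by its cyclins, and many of the genes involved are transcribed together late in the cell cycle. Kinesins and their partners then build the spindle, the kinetochore couples it to the chromosomes, and the spindle checkpoint holds back the anaphase-promoting complex (APC/C) until all chromosomes are attached. LEPR+ stromal cells of the adult marrow are known as a mostly quiescent population, while blood-forming precursors of the same marrow divide often.

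Expression of these genes was higher in elderly mice for most members. Of the 42, 41 had more than 2 counts over the 4 libraries and were tested, and 1, the kinesin gene Kif20b, had 1 count and was not. By the quasi-likelihood test of edgeR, adjusted by Benjamini-Hochberg over the 21340 genes tested, 16 of the 41 (39.0%) rose in elderly mice at an adjusted p under 0.05, against 2.28% of all genes, and 0 fell, against 0.45% of all genes. At an unadjusted p under 0.05, 27 members were higher (7.61% of all genes) and 0 lower. The log2 fold change of elderly against mature mice was above 0 for 39 members and below 0 for 2, while 51.2% of all genes tested were above 0. Its median was 1.48 over the members and 0.02 over all genes tested. For 34 members both elderly values exceeded both mature values, which held for 22.9% of all genes, 7 members overlapped, and 0 lay wholly below (18.1% of all genes). The calls depended on both elderly libraries. Without elderly replicate 1, edgeR called 0 members higher (0.175% of all genes) and 17 had an unadjusted p under 0.05, and without elderly replicate 2 these numbers were 0 (0.0% of all genes) and 19. In the latter fit 1637 of all 20580 genes tested had an unadjusted p under 0.05. Without mature replicate 2 there were 7 calls (2.24% of all genes), and without mature replicate 1 there were 20 (3.51%). Among the other methods, DESeq2 called 15 members (2.56% of all genes), 14 of them among the 16 but not Cdc25c and Mki67, and the robust fit of edgeR called 19 (3.4%), again with 14 of the 16 but not Mki67 and Top2a. All of these fits called 0 members lower. The exact test at a fixed dispersion of 0.2, which the study used, gave the same median log2 fold change (1.48) and an unadjusted p under 0.05 for 22 members. At the adjusted threshold applied here, which is not taken from the study, it called 0.937% of all genes higher and 1 member, Kif2c, which is not among the 16. The smallest p of a permutation test of 2 libraries against 2 is 0.333, so the adjusted values here draw on variance shared across genes.

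**Figure D1:**
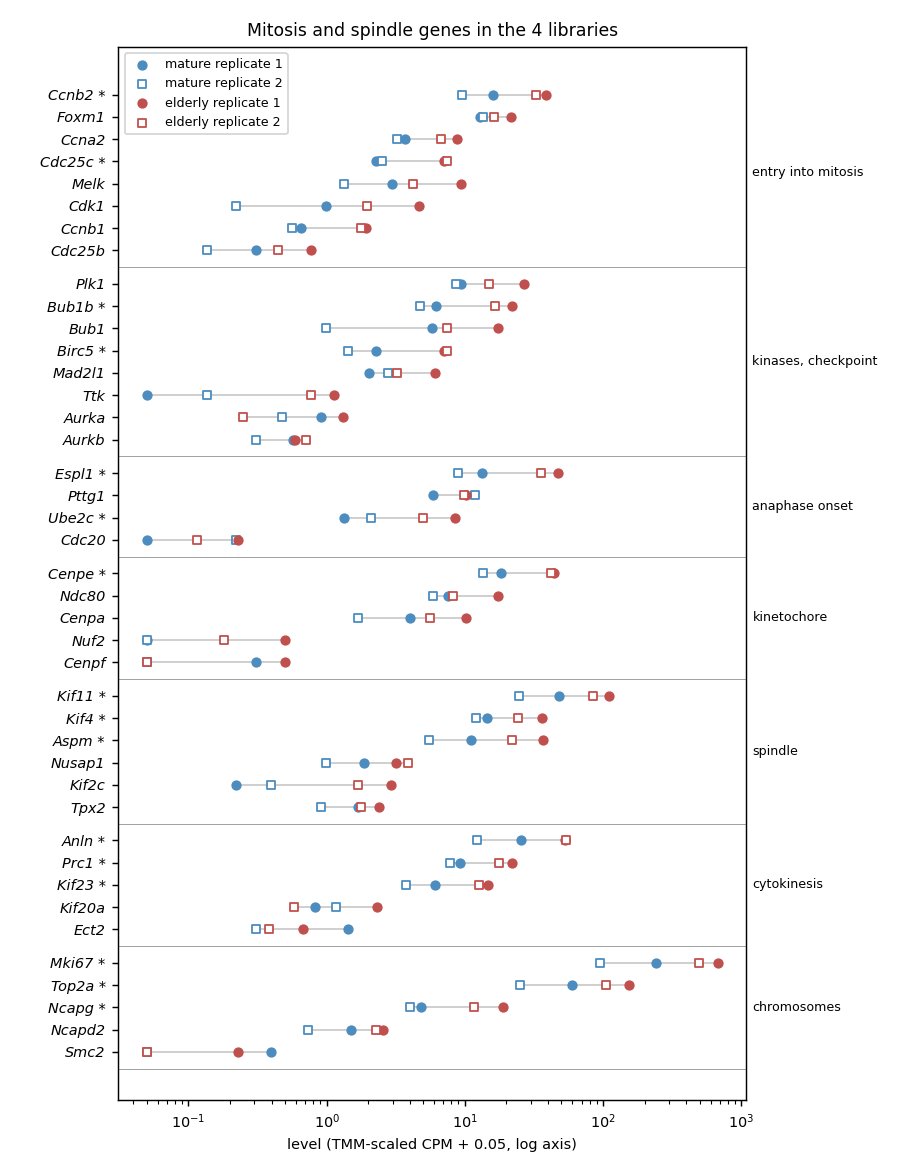
Level of each of the 41 tested mitosis and spindle genes in each library, in TMM-scaled CPM plus 0.05 on a log axis, grouped by role; circles are replicate 1 and squares replicate 2 of mature (blue) and elderly (red) mice, a gray line spans the 4 values, and an asterisk marks the 16 genes called higher in elderly mice. A value at 0.05 is a count of 0. The red symbols lie to the right of the blue ones for 34 genes.

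The promoters of most of these genes hold short sequence motifs, which are described here by their letters alone. Whether these motifs have a part in the age difference was not tested. RefSeq promoters (GRCm38.p6, 250 bases before to 50 bases after each gene start) were found for 36 of the 42 genes, in 38 entries. The letters searched on both strands were TTTGAA and TTTAAA, 2 forms of the cell cycle genes homology region (CHR) that the DREAM and MMB complexes bind, and CCAAT, the box bound by the factor NF-Y. TTTGAA was present for 26 of the 36 members (72.2%, exact 95% binomial interval 54.8 to 85.8%) and in 17.9% of all 32851 promoters of this length, or for 14.9% of the tested genes with a promoter. CCAAT was also present for 26 members (72.2%) and for 42.2% of the tested genes, and TTTAAA for 10 members (27.8%) and 11.4% of the tested genes. Both TTTGAA and CCAAT stood in 1 promoter for 22 members (61.1%) and for 6.08% of the tested genes. At least 2 CCAAT boxes were found for 16 members (44.4%) and for 15.5% of the tested genes. The 200 bases upstream of the start are printed 5′ to 3′ on the strand of the gene for 6 called members and for Pttg1, which did not pass the test. Capitals mark TTTGAA or its reverse complement TTCAAA, and CCAAT or its reverse complement ATTGG. In Ube2c, CCAAT boxes of both strands overlap once.
Espl1 (chr15:102296093-102296292, plus strand): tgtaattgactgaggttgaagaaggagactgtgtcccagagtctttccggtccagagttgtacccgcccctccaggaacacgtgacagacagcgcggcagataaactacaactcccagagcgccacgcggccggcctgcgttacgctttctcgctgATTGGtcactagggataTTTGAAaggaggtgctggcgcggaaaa
Mki67 (chr7:135716380-135716579, minus strand): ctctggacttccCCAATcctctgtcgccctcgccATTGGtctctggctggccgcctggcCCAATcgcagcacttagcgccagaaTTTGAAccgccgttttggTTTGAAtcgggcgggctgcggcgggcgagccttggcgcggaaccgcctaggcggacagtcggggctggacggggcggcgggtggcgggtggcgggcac
Top2a (chr11:99024190-99024389, minus strand): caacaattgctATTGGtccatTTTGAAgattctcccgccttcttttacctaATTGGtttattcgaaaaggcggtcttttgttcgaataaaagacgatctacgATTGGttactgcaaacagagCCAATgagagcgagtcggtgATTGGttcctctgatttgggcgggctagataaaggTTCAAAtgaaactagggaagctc
Ccnb2 (chr9:70421555-70421754, minus strand): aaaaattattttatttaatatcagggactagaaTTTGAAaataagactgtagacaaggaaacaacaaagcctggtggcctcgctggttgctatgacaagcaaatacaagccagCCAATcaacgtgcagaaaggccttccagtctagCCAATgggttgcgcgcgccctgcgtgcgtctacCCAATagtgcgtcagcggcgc
Kif11 (chr19:37376182-37376381, plus strand): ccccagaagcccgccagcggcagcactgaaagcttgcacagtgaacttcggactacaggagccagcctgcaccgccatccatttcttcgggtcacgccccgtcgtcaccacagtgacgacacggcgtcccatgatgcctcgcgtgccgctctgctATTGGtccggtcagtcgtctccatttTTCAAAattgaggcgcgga
Ube2c (chr2:164769729-164769928, plus strand): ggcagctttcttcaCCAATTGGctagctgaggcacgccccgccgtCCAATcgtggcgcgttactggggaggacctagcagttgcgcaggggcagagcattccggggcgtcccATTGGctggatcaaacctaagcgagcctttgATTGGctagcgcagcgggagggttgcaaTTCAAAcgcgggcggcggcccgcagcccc
Pttg1 (chr11:43425982-43426181, minus strand): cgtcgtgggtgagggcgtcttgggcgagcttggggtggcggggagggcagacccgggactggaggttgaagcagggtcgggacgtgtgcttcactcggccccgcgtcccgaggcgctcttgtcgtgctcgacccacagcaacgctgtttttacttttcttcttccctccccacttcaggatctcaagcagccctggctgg
Espl1 and Kif11 each carry 1 CCAAT box within 50 bases of the start and a TTTGAA match downstream of it, Mki67 and Ccnb2 each carry 3 CCAAT boxes, and Ccnb2 has 1 more TTTGAA match just after the start. No match to any of the 3 motifs was found for 5 members, Mad2l1, Melk, Nuf2, Nusap1 and Pttg1. The printed promoters are not a comparison of called with other members. The 5 members without a match did not pass the test. Neither did Aurka, Cdc20, Cdk1, Cenpa, Cenpf, Ect2, Ncapd2, Plk1, Smc2 and Ttk, which have both TTTGAA and CCAAT. Birc5, which was called, has neither of these 2. These are matches of letters and not measured binding, and the absence of a match says only that these letters are not in the window.

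**Figure D2:**
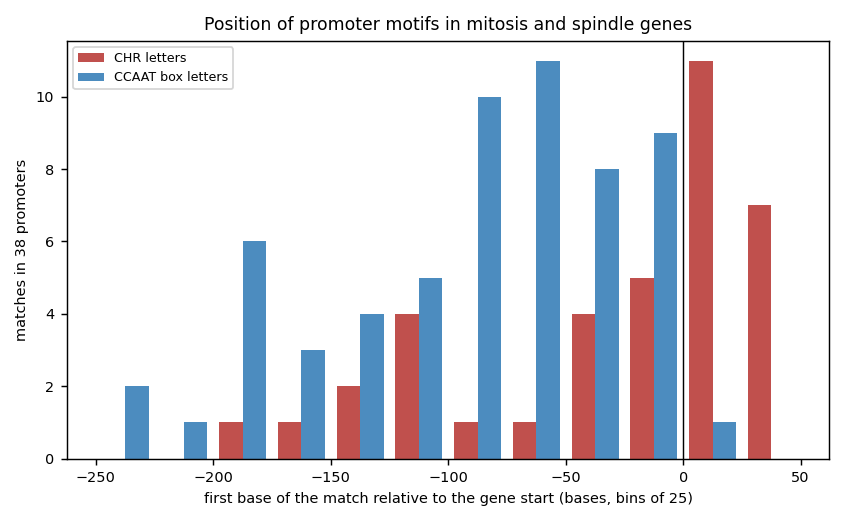
Number of matches of the CHR letters (TTTGAA, red) and the CCAAT box (blue) on either strand by the position of their first base relative to the gene start, in bins of 25 bases over 38 promoters of 36 mitosis and spindle genes. The 37 CHR matches had a median position of −5, with 27 of them within 50 bases of the start on either side, and the 60 CCAAT matches had a median position of −78.

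Genes of mitotic entry, the Cdk1 module, were higher in both elderly libraries for all 8 members (22.9% of all genes). The test was passed by 2 of the 8 (2.28% of all genes). Ccnb2, a cyclin partner of Cdk1 (chr9:70255496-70269361, minus strand, mm9), was counted at 15.8 and 9.52 CPM in mature and at 38.8 and 32.7 CPM in elderly replicates 1 and 2. The elderly libraries did not overlap the mature ones, and its log2 fold change was 1.49 ± 0.29 (SE, edgeR adjusted p = 0.015). Cdc25c, the phosphatase that activates Cdk1, stood at 2.24 and 2.49 CPM in mature and at 7.01 and 7.32 CPM in elderly mice. Libraries of the same age nearly agreed, and the log2 fold change was 1.60 ± 0.37 (SE, edgeR adjusted p = 0.0393). DESeq2 placed Cdc25c at an adjusted p of 0.0507, and over all fits of the 4 libraries the values ran from 0.0025 to 0.447. Cdk1, the mitotic kinase itself, had only 11 and 2 counts in mature and 51 and 29 counts in elderly libraries, with a log2 fold change of 2.50 ± 0.74 (SE, edgeR adjusted p = 0.119). It was 4.15 without mature replicate 1 and 1.71 without mature replicate 2, and the adjusted p of Cdk1 ran from 0.0024 to 0.127 over all fits of the 4 libraries, of which 4 of 12 called it. The other cyclins, Ccna2 and Ccnb1, had edgeR adjusted p of 0.133 and 0.334 at log2 fold changes of 1.18 and 1.67. Foxm1, a transcription factor of late cell cycle genes, was counted at 12.9 and 13.6 CPM in mature and 21.5 and 16.2 CPM in elderly mice, and its log2 fold change of 0.51 ± 0.27 (SE, edgeR adjusted p = 0.553) was the smallest among the 26 members with at least 100 counts apart from Pttg1. The remaining members, the phosphatase Cdc25b and the kinase Melk, had log2 fold changes of 1.63 and 1.67 and did not pass the test.

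Of the 8 mitotic kinases and spindle checkpoint genes, 2 rose (2.28% of all genes) and 6 did not pass the test. Bub1b, which encodes the checkpoint protein BubR1, was counted at 6.11 and 4.72 CPM in mature and at 21.8 and 16.4 CPM in elderly replicates 1 and 2. Both elderly values were more than the sum of the mature ones, and the log2 fold change was 1.81 ± 0.31 (SE, edgeR adjusted p = 0.00749). Birc5, or survivin, a subunit of the chromosomal passenger complex, was counted at 2.24 and 1.37 CPM in mature and at 7.01 and 7.32 CPM in elderly mice (log2 fold change 1.98 ± 0.41, SE, edgeR adjusted p = 0.0208). Plk1, a kinase that acts from mitotic entry to cytokinesis, was just outside the threshold, with 9.30 and 8.58 CPM in mature and 26.6 and 14.9 CPM in elderly mice. The mature libraries nearly coincided for Plk1 and the elderly ones were far apart, and its edgeR adjusted p of 0.0731 (log2 fold change 1.21) turned to a call with DESeq2 (adjusted p = 0.0344, with a range of 0.00174 to 0.771 over all fits of the 4 libraries). The checkpoint kinase gene Bub1 showed the widest spread between mature libraries, at 5.77 and 0.943 CPM, against 17.2 and 7.32 CPM in elderly mice. Ttk, the kinase that starts checkpoint signalling, had 0 and 1 counts in mature and 12 and 11 counts in elderly libraries, a pooled ratio of 20.4 with a 95% counting interval of 3.31 to 839. The checkpoint protein gene Mad2l1 had a log2 fold change of 0.95 (edgeR adjusted p = 0.483). The Aurora kinases, which act on the spindle and the centromere, had few counts. Aurka, with 32 counts, overlapped between ages, and Aurkb, with 25 counts, had 0 counts on protein-coding transcripts.

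Anaphase onset is set by APC/C and by separase, and 2 of these 4 genes rose (2.28% of all genes). Espl1, the gene of separase, which cuts cohesin (chr15:102126724-102154787, plus strand, mm9), had the lowest adjusted p of all members. It was counted at 13.3 and 8.92 CPM in mature and at 47.3 and 35.4 CPM in elderly replicates 1 and 2. The lower elderly value was well above the higher mature one, and the log2 fold change was 1.89 ± 0.28 (SE, edgeR adjusted p = 0.00326). Ube2c, the ubiquitin-conjugating enzyme of APC/C, rose by a log2 fold change of 1.99 ± 0.45 (SE, edgeR adjusted p = 0.0334), with Birc5 the largest among the 16, from 1.29 and 2.06 CPM to 8.44 and 4.95 CPM. The rise lay on 1 of its 2 coding transcripts, with 409 countable bases and 12 and 8 against 83 and 58 counts. The other, with 1041 countable bases, had 3 and 16 against 11 and 17 counts and overlapped between ages. In contrast, Pttg1, which encodes securin, the inhibitor of separase, was counted at 5.85 and 11.8 CPM in mature and 10.2 and 9.77 CPM in elderly mice. Its ages overlapped, the log2 fold change was 0.17 ± 0.35 (SE, edgeR adjusted p = 0.934), and it was below 0 (−0.25) without mature replicate 1. Cdc20, the activator of APC/C, had only 5 counts in all, 0 of them on a protein-coding transcript, and only 147 bases on which reads could be counted.

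At the centromere and kinetochore, 1 of 5 genes rose (2.28% of all genes). Cenpe, a kinesin that carries chromosomes to the spindle equator, was counted at 18.3 and 13.6 CPM in mature and at 44.5 and 42.2 CPM in elderly replicates 1 and 2. The elderly libraries were close to each other and well above both mature ones, with a log2 fold change of 1.44 ± 0.25 (SE, edgeR adjusted p = 0.00802). The centromeric histone gene Cenpa had a log2 fold change of 1.48 (edgeR adjusted p = 0.152). Ndc80, part of the microtubule-binding complex of the kinetochore, was counted at 7.49 and 5.83 CPM in mature and 17.4 and 8.12 CPM in elderly mice, with a log2 fold change of 0.93 (edgeR adjusted p = 0.33). Nuf2, its partner in that complex, had the highest fitted log2 fold change of all members, but it had 0 counts in both mature libraries and 5 and 2 in the elderly ones. The mean elderly level of Nuf2 was 1.13 times the limit that a count of 0 allows, which is 3 counts in a library. This ratio leaves out the counting error of the elderly libraries and is not a lower bound. Elderly replicate 2, at 0.132 CPM, lay below the limit of 0.257 CPM in mature replicate 2. With Nuf2 at this ratio the median of the members was 1.44. Cenpf, a large kinetochore protein, had 8 counts in all.

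Of 6 genes of spindle motors and microtubule proteins, 3 rose (2.28% of all genes). Both elderly values exceeded both mature values for all 6 (22.9% of all genes). Kif11, the kinesin that pushes spindle poles apart (chr19:37450893-37496349, plus strand, mm9), was counted at 48.3 and 24.4 CPM in mature and at 111.3 and 84.3 CPM in elderly replicates 1 and 2. Mature replicate 1 was 1.98 times mature replicate 2, and the log2 fold change was 1.43 ± 0.29 (SE, edgeR adjusted p = 0.0203). Kif4, a kinesin of chromosome arms and the spindle midzone, stood at 14.4 and 12.1 CPM in mature and at 35.9 and 24.2 CPM in elderly mice (log2 fold change 1.18 ± 0.28, SE, edgeR adjusted p = 0.0408). This was the smallest difference among the 16. Aspm, a protein of spindle poles, was counted at 11.02 and 5.49 CPM in mature and at 36.6 and 21.97 CPM in elderly mice. Its log2 fold change was 1.82 ± 0.36 (SE, edgeR adjusted p = 0.0168), and it was 2.41 without mature replicate 1 and 1.36 without mature replicate 2. Kif2c, a kinesin that shortens microtubules, had 2 and 4 counts in mature and 32 and 25 counts in elderly libraries, with a log2 fold change of 3.08 ± 0.77 (SE). Its edgeR adjusted p was 0.0554 and that of the exact test 0.042, and over all fits of the 4 libraries its adjusted p lay between 0.00659 and 0.0791, on either side of the threshold. The microtubule-binding proteins Tpx2 and Nusap1 had log2 fold changes of 0.69 and 1.34 and did not pass the test.

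Among the genes of the midzone and cytokinesis, 3 of the 5 tested rose (2.28% of all genes). Anln, the actin-binding protein anillin of the contractile ring, was counted at 25.5 and 12.3 CPM in mature and at 53.1 and 54.2 CPM in elderly replicates 1 and 2, and its log2 fold change was 1.51 ± 0.31 (SE, edgeR adjusted p = 0.0188). The elderly libraries were almost equal while the mature ones differed by a factor of 2.08, and the log2 fold change of Anln was 2.13 without mature replicate 1 and 1.03, without a call, when mature replicate 2 was left out. Kif23, a kinesin of the centralspindlin complex, was counted at 6.03 and 3.69 CPM in mature and 14.6 and 12.6 CPM in elderly mice (log2 fold change 1.48 ± 0.34, SE, edgeR adjusted p = 0.0334). Prc1, which bundles midzone microtubules, was counted at 9.21 and 7.72 CPM in mature and 21.9 and 17.6 CPM in elderly mice (log2 fold change 1.22 ± 0.28, SE, edgeR adjusted p = 0.0393). Most counts of Prc1 (90.8%) lay on transcripts with a retained intron, and with protein-coding transcripts alone its log2 fold change was 1.24 and it was not called (edgeR adjusted p = 0.443, with a range of 0.000888 to 0.763 over all fits of the 4 libraries). Ect2, the exchange factor that activates RhoA at the division site, was 1 of 2 members with a log2 fold change below 0 (−0.78 ± 1.02, SE, edgeR adjusted p = 0.876). It had 16 and 3 counts in mature and 7 and 5 counts in elderly libraries, which overlapped, and without mature replicate 1 the value was 0.85. Kif20a, a kinesin of the midzone, also overlapped, at 9 and 13 against 25 and 8 counts.

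The 5 genes of chromosome structure and the proliferation antigen included those with the highest levels. Mki67, which encodes the Ki-67 protein of the mitotic chromosome surface and is widely used to mark dividing cells (chr7:142881471-142908062, minus strand, mm9), was counted at 242.1 and 95.02 CPM in mature and at 675.8 and 495.0 CPM in elderly replicates 1 and 2. The mature libraries differed by a factor of 2.55, the elderly ones lay above both, and the log2 fold change was 1.80 ± 0.34 (SE, edgeR adjusted p = 0.0142). Top2a, the topoisomerase that untangles sister chromatids, followed the same order at 59.8 and 25.1 CPM in mature and 153.8 and 105.3 CPM in elderly mice (log2 fold change 1.61 ± 0.34, SE, edgeR adjusted p = 0.0224). Both calls depended on the variance model. In the robust fit of edgeR the adjusted p was 0.414 for Mki67 and 0.32 for Top2a, and DESeq2 gave 0.127 for Mki67 and 0.000241 for Top2a. Over all fits of the 4 libraries the adjusted p ranged from 5.53e-14 to 0.414 for Mki67 and from 6.76e-12 to 0.382 for Top2a. The log2 fold change of Mki67 was 2.62 without mature replicate 1 and 1.23 without mature replicate 2, and that of Top2a was 2.37 and 1.07. Ncapg, a condensin subunit, was counted at 4.73 and 3.94 CPM in mature and 18.8 and 11.6 CPM in elderly mice (log2 fold change 1.80 ± 0.34, SE, edgeR adjusted p = 0.0138). The other condensin genes had few counts. Ncapd2, with 87, was above the mature libraries in both elderly ones without passing the test, and Smc2, with 4 and 0 against 2 and 0 counts, had the lowest log2 fold change of all members (−0.98 ± 2.13, SE, edgeR adjusted p = 0.938).

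**Figure D3:**
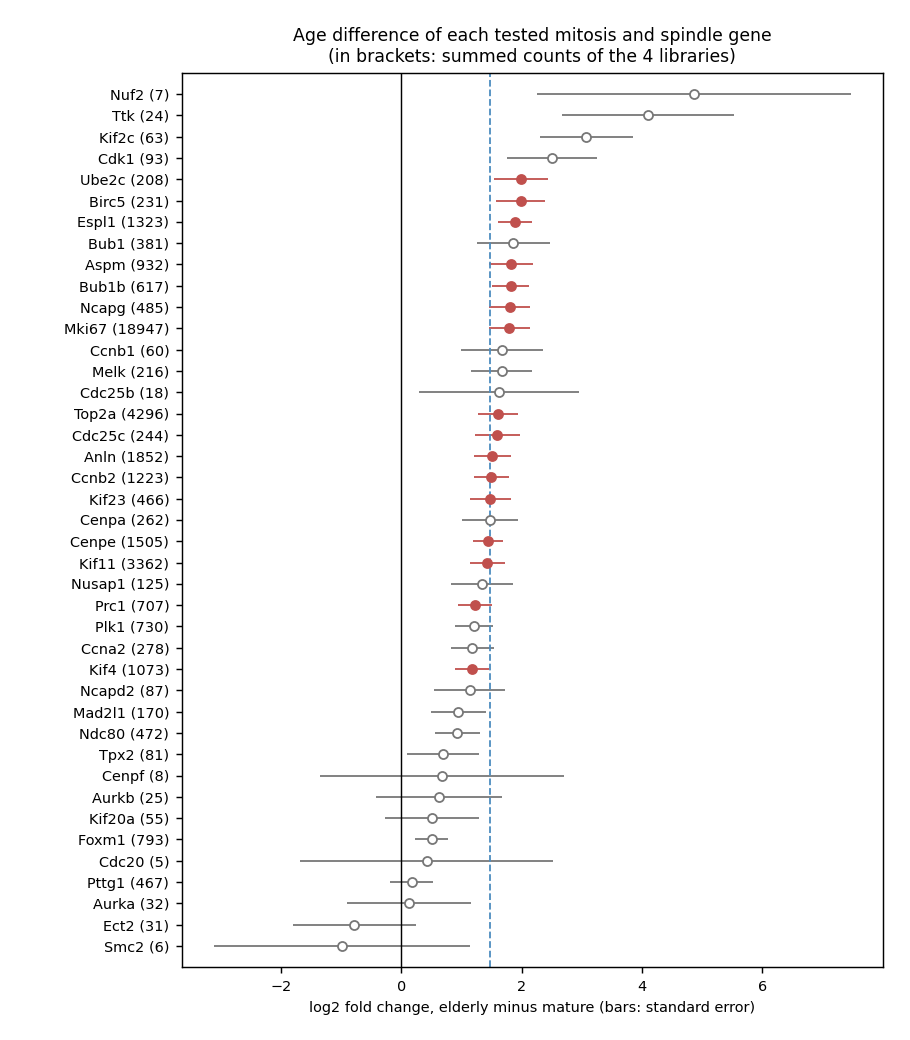
Log2 fold change of elderly against mature mice for the 41 tested genes, with the summed counts in brackets. Bars are 1 standard error, derived from the log2 fold change and the F statistic of edgeR's test. Filled red points are the 16 called genes and open points the others, the black line is 0 and the dashed blue line is the median of the 41. The 16 called genes lie between 1.18 and 1.99, and the genes with the highest and lowest values (Nuf2, Smc2) have 7 and 6 counts.

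Called members had more countable bases than the others. The deposited counts are per transcript, and a read on bases that several transcripts share was not counted: the 25621 transcripts that share all of their exonic bases with others had 0 counts throughout. The low count of a gene with few countable bases was therefore not read as low expression. The called members had a median of 4314.5 countable bases (1450 to 10075) and the other tested members of 906 (147 to 2882). Among the 26 members with at least 100 counts, 16 were called, all 26 had a log2 fold change above 0 and 25 lay apart with the elderly libraries higher, whereas 3.82% of the 12026 genes with that many counts were called higher and 23.1% lay apart in this direction. Of the 15 members tested with fewer counts, 0 were called by edgeR's quasi-likelihood test or by DESeq2, 4 had an unadjusted p under 0.05 and 13 had a log2 fold change above 0. The robust fit called 2 of them, Cdk1 and Kif2c, and the exact test called 1, Kif2c. For 9 members with a single annotated transcript every base was countable. These were Anln, Ccnb2, Cdc25c, Cenpe, Espl1, Kif11, Mki67, Ndc80 and Plk1, of which 7 were called, and for all 9 the ages did not overlap, at log2 fold changes of 0.93 to 1.89. On the other hand, most counts lay on retained introns for 6 members, Aurka, Aurkb, Ccnb1, Cdc25b, Ect2 and Prc1, and 4 members, Aurkb, Cdc20, Cdc25b and Cenpf, had no count on a protein-coding transcript. With protein-coding transcripts alone, 17 of 36 members were called (3.48% of all genes), 15 of them among the 16 above.

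**Figure D4:**
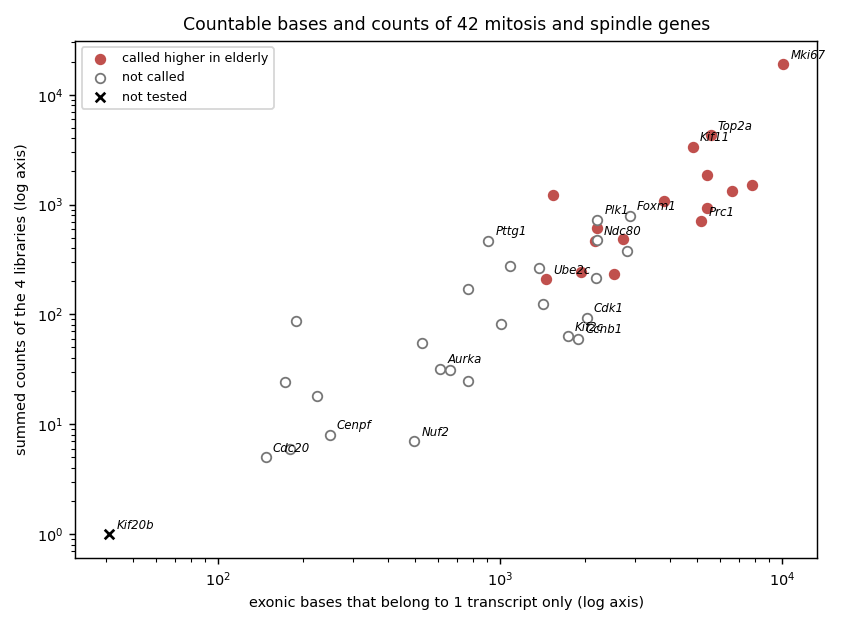
Summed counts of the 4 libraries against the exonic bases that belong to 1 transcript only, for 42 mitosis and spindle genes on log axes; red points were called higher in elderly mice, open points were tested and not called, and the cross (Kif20b, 41 bases, 1 count) was not tested. The called genes lie at 208 counts or more and the uncalled ones at 793 counts or fewer.

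Between genes, levels were compared per kilobase of countable bases, for the 34 members with at least 500 such bases. Mki67 had the highest mean level in elderly mice, 58.1 CPM per kb, followed by Top2a with 23.3, Ccnb2 with 23.2 and Kif11 with 20.3 CPM per kb. In mature mice these 4 genes stood at 16.7, 7.63, 8.23 and 7.55 CPM per kb. Pttg1 stood at 9.76 CPM per kb, which rested on mature replicate 2 (11.8 against 5.85 CPM in mature replicate 1). In mature replicate 2 Pttg1 lay above Mki67 per kb, so that the order of these genes, including Mki67, did not hold in both mature libraries. In elderly mice Pttg1 followed Kif11, at 11.0 CPM per kb. On this scale the elderly libraries of Top2a, Ccnb2 and Kif11 overlap, but the scale counts the bases of all transcripts of a gene. Of the 5567 countable bases of Top2a, 2320 lay on protein-coding transcripts, which held 94.3% of its counts. The place of Top2a relative to Mki67, Ccnb2 and Kif11 thus depends on which bases are counted, and no order among these genes is drawn from it. The lowest elderly levels per kb were those of Ect2, Aurkb and Ccnb1, each under 1 CPM per kb and mostly counted on retained introns.

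The members also differed between libraries of the same age. Elderly replicate 1 had the highest level for 33 of the 41 members, whereas it was the highest library for 29% of all genes tested, and mature replicate 2 had the lowest level for 30 members, against 25.2% of all genes. Mature replicate 1 lay above mature replicate 2 for 31 members (48.9% of all genes), and elderly replicate 1 above elderly replicate 2 for 36 (52.2% of all genes). The summed level of the 41 members was 545.3 and 287.9 CPM in mature and 1449 and 1065 CPM in elderly replicates 1 and 2. The mean was thus 3.02-fold higher in elderly mice, the mature libraries differed by a factor of 1.89 and the elderly ones by 1.36, and the lower elderly library was 1.95-fold above the higher mature one. Mki67 alone made up 33.0 to 46.6% of these sums, and without it they were 303.2 and 192.9 CPM in mature and 773.0 and 569.9 CPM in elderly mice. In these bulk samples, more dividing cells and more RNA per dividing cell cannot be told apart.

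The other genes of the same process were taken from 4 lists that hold none of the 42 members. Of 125 tested, 14 rose (11.2%, against 2.28% of all genes) and 0 fell (0.45% of all genes). The median log2 fold change was 0.51 (0.02 over all genes), and 91 were above 0 (51.2% of all genes). For 61 both elderly values exceeded both mature values (22.9% of all genes), and 12 lay wholly below (18.1%). The calls in each list below are to be read against the same 2.28%. In the list of kinetochore and checkpoint genes 5 of 40 rose, namely Kntc1, Cenph, Casc5, Spag5 and Trip13, at log2 fold changes of 1.71 to 2.60. Kif18b, a kinesin of microtubule ends, had the lowest adjusted p of the 34 spindle and cytokinesis genes, with 4.22 and 2.23 CPM in mature and 18.8 and 17.6 CPM in elderly mice (log2 fold change 2.49 ± 0.35, SE, edgeR adjusted p = 0.00221). Shcbp1, Kif14, Kif22 and Nek2 rose with it, and the median of this list was 1.24. In the list of condensin, cohesin and chromatid genes the condensin II subunit gene Ncapg2 and the cohesin acetyltransferase gene Esco2 rose, 2 of 17. Among the genes of APC/C and mitotic control, 2 of 34 rose, the APC/C inhibitor gene Fbxo5 and the mitotic kinase gene Pbk. The median of this list was 0.10, near the 0.02 of all genes. Genes of DNA replication and S phase had 6 calls among 46 tested, led by E2f2, Cdt1, Mcm2, Rrm2 and Rrm1, and a median of 0.51. Replication-dependent histone genes, whose RNA is made in S phase, rose in 34 of 63 cases with a median of 1.75, led by Hist1h3e at a log2 fold change of 2.70 ± 0.27 (SE, edgeR adjusted p = 0.000302). Of 15 CDK inhibitors and pocket proteins, which hold the cycle back, 0 were called by edgeR or DESeq2 in either direction and 0 had an unadjusted p under 0.05, with a median of 0.11. The summed levels of the replication and histone lists had the same order of libraries as the mitosis and spindle genes, with elderly replicate 1 highest and mature replicate 2 lowest. The spindle and cytokinesis list and the condensin, cohesin and chromatid list had this order too. It did not hold for kinetochore and checkpoint genes, with mature replicate 1 lowest (814.9 CPM, against 857.1 CPM in mature replicate 2). Nor did it hold for genes of APC/C and mitotic control, with elderly replicate 1 lowest (1666 CPM).

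Markers of several blood lineages, but not of all, were higher in the same libraries as the mitosis and spindle genes. Over all genes 2.28% were called higher and 0.45% lower, and the calls in each marker list are to be read against these shares. Erythroid markers rose in 15 of 22 cases (median log2 fold change 2.15). Their summed level was 536.9 and 263.4 CPM in mature and 1814 and 1642 CPM in elderly replicates 1 and 2. Rhag, Car2 and Car1 were among those with the lowest adjusted p, and Slc4a1, Car2 and Hbb-b2 had the highest levels. Neutrophil lineage markers rose in 10 of 15 cases, led by Elane, Ctsg, Cebpe, Ngp and Ms4a3 and with S100a8, Ltf and Ngp the most abundant, and summed to 2130 and 1226 CPM in mature and 4590 and 4526 CPM in elderly mice. The sums of the 12 B-lineage markers tested (34.5 to 43.3 CPM in mature and 67.7 to 100.9 CPM in elderly mice; Rag1 rose and had the highest level, followed by Cd79a) and of the plasma cell markers (83.2 to 111.0 and 153.3 to 157.5 CPM; Igj and Prdm1 rose, and Sdc1, Igj and Pou2af1 had the highest levels) had the same order of libraries too. Prdm1 had 0 counts in both mature libraries. Macrophage markers were also higher in both elderly libraries, at 52.9 and 88.5 CPM against 26.4 and 26.2 CPM, and C1qb, Mrc1, C1qa and C1qc rose among 9 tested, of which Mrc1, Cd68 and C1qb had the highest levels. Of 12 markers of LEPR+ stromal cells, led by Cxcl12, Lepr and Kitl, 0 were called by edgeR's quasi-likelihood test or DESeq2 and 1 was called lower by the robust fit. An unadjusted p under 0.05 was found for 2. The median was −0.31, and all 12 were below 0, while 51.2% of all genes were above 0. For 6 of the 12 both elderly values lay below both mature values (18.1% of all genes), and for 0 both lay above (22.9%). Their sum was 31440 and 31950 CPM in mature and 19300 and 28230 CPM in elderly mice. Among the lists with another order of libraries than the members were those of megakaryocytes (26.5 and 238.1 CPM in mature, 108.5 and 182.7 CPM in elderly mice; Ppbp, Pf4 and Itga2b highest), eosinophils (316.4 and 25.6 against 142.9 and 139.5 CPM; Prg2, Epx and Il5ra) and hematopoietic progenitors (21.3 and 21.9 against 26.9 and 22.8 CPM; Meis1, Spi1 and Cd48). The median log2 fold changes of these lists were 0.06, −0.23 and 1.42. Of the 9 hematopoietic progenitor genes tested, 0 were called by edgeR's quasi-likelihood test and 6 were above 0. For 5 of these 9 both elderly values exceeded both mature values (22.9% of all genes), and 1 lay wholly below (18.1% of all genes). Osteoblast markers summed to 7041 and 6420 CPM in mature and to 2164 and 4092 CPM in elderly mice, with Ibsp called lower, Col1a1 called higher and Alpl next in level. T and NK cell markers (Cd4, Cd3e and Cd3d highest) summed to 4.22 and 6.00 CPM in mature and 16.4 and 9.90 CPM in elderly mice, with a median log2 fold change of 2.22 and 0 of 7 called by edgeR's quasi-likelihood test, 3 at an unadjusted p under 0.05 and 1 called by DESeq2. Endothelial markers (Pecam1, Flt4 and Cdh5), of which Flt4 rose, summed to 25.8 to 39.6 CPM in mature and 46.2 to 46.5 CPM in elderly mice. Of 139 markers listed, 18 had 2 counts or fewer and were not tested, 9 of them at 0, among them Cd79b and Cd22, and both Hba-a1 and Hba-a2 had 2 counts. Ptprc, the CD45 gene, had between 1 and 12 counts per library on 152 countable bases. The part of these cells in the levels of the mitosis and spindle genes was not tested.

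**Figure D5:**
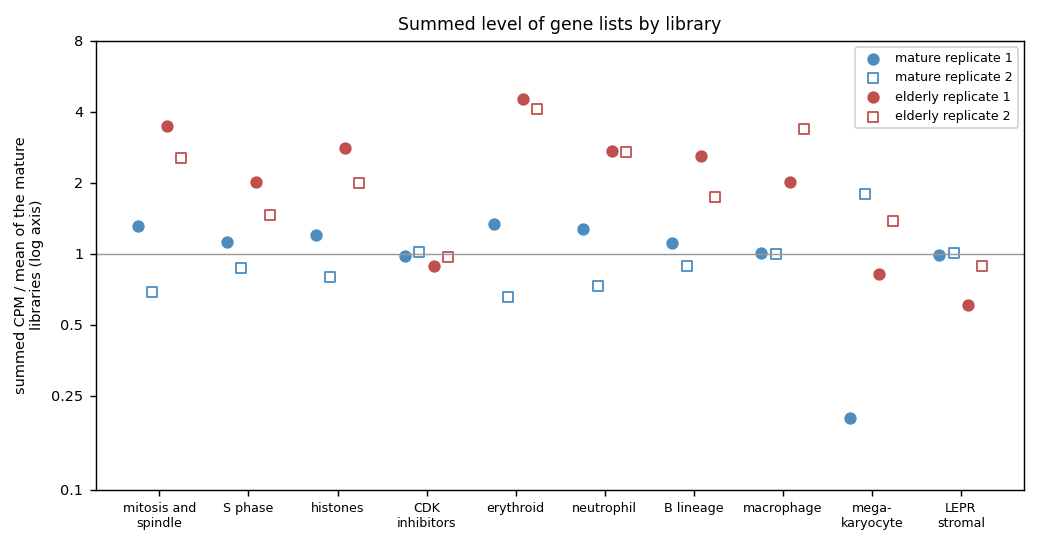
Summed CPM of each gene list in each library divided by the mean of the 2 mature libraries, on a log axis, with circles for replicate 1 and squares for replicate 2 of mature (blue) and elderly (red) mice; the gray line is the mature mean. Mitosis and spindle genes, S phase genes, histones, erythroid, neutrophil and B-lineage markers share 1 order of libraries, and the markers of megakaryocytes and LEPR+ stromal cells do not.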

How the data were processed

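RNA of 4 libraries, 2 per age, was sequenced. It is poly(A) RNA per the labels, while the methods of the study except some samples, named by abbreviations, that were processed as total RNA. The labels and the methods of the study name cutadapt, HISAT2 (mm9) and featureCounts, and the authors deposited whole-number read counts per Ensembl transcript, without normalization. The strand setting of the counting is not given in the sources used here. The titles of the labels gave the groups. Transcripts were matched to GENCODE release M1 on mm9 (388 of 95883 unmatched, at most 0.0888% of counts) and summed per gene symbol. Genes with more than 2 counts in sum (21340) were normalized by TMM (factors 0.969 to 1.06) and the ages compared in R 4.3.3 with edgeR 4.0.16, using a two-sided quasi-likelihood test without covariates and Benjamini-Hochberg adjustment over all genes tested (biological coefficient of variation 0.262). The test was checked on simulated counts. A gene was called at an adjusted p under 0.05. Log2 fold changes use a prior count of 0.125, on which the values of members with 0 counts in a library depend. The standard errors (SE) are not an output of edgeR. Each was derived as the absolute log2 fold change divided by the square root of the F statistic of the quasi-likelihood test.

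Over genes with at least 20 counts, the chi-square per gene between libraries of 1 age was 16.2 (mature) and 34.6 (elderly), above sampling noise. Over the members with that many counts it was higher, at 40.4 (mature) and 45.3 (elderly). The libraries held 10472117 to 15650518 counts, and 3 counts equal 0.198 to 0.27 CPM. Intervals and limits cover counting error only. Countable bases are exonic bases that no other transcript covers on either strand. The members, the pathway and marker lists and the tests were chosen with earlier results of these data known. All called members are named with their values, as are those with the highest and lowest log2 fold change; of other pathway lists at most 5 called genes with the lowest p are named, and of marker lists the 3 with the highest mean CPM and at most 5 called genes. A few marker genes within this rule are not reported here. Alternatives were DESeq2 1.42.0, an exact test (dispersion 0.2), the robust fit, no filter, filterByExpr, library size without TMM, TMM factors that leave out immunoglobulin, hemoglobin and histone genes, a replicate block, the transcript with the most counts, protein-coding transcripts only (added after the data were seen), a prior count of 2, other thresholds and each library left out. Promoters were taken from RefSeq on GRCm38.p6, and their coordinates are not set beside those on mm9.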

Additional observations from a re-analysis of the deposited data

How the results depend on the processing

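All 16 members called were called also without a filter, with filterByExpr, library size alone, TMM factors without immunoglobulin, hemoglobin and histone genes, the transcript with the most counts, or a prior count of 2. The exact test (dispersion 0.2) called 1. With each library left out in turn the number called lay between 0 and 20, the median log2 fold change between 1.07 and 1.88, the number of genes called higher over the pathway lists between 0 and 79, and over the marker lists between 0 and 43. A fit without 1 library assumes that the lone library of its age varies like the others. The sign of 7 members, of which Pttg1 had 467 counts and the others under 100, changed with 1 library left out. The log2 fold change ranged from −1.68 to 0.95 for Aurka, −0.51 to 3.68 for Cdc20, −3.84 to 4.47 for Cenpf, −0.84 to 1.24 for Kif20a, −0.25 to 0.72 for Pttg1, −1.58 to 0.85 for Ect2 and −4.23 to 0.059 for Smc2. The cause was not tested.

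Replicate numbers are shared by the ages in the labels, but deviations of same-numbered libraries were nearly unrelated (correlation 0.04 over 9101 genes of at least 5 CPM). A correlation over all genes cannot show whether same-numbered libraries share a batch that acts on the members. Replicate 1 lay above replicate 2 for 31 of the 41 members in mature mice (48.9% of all genes). In elderly mice this held for 36 members (52.2% of all genes). A shared batch was not tested. With the replicate block, 23 members and 970 of all genes were called higher, including all 16, and the log2 fold change of Aurka was −0.12. Of the 15 tested members with under 100 counts, the quasi-likelihood test called 0 and its robust form 2, so their calls depended on the fit.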
